A study of Mus musculus with 2 samples.

Results

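The cells described here were the feeder fibroblasts that came along with cultured mouse spermatogonia into 2 single-cell libraries, one from cells given an siRNA against Chd4 and one from cells given a non-targeting control siRNA. They were chosen from their own transcripts: a cell was taken when its summed unique molecular identifiers (UMIs, one per captured RNA molecule) of 5 fibroblast genes, Col1a1, Col1a2, Col3a1, Fn1 and Sparc, were at least 5 times those of 5 germ cell genes, Ddx4, Dazl, Mael, Dnd1 and Zbtb16. The rule took 167 of 1674 kept cells. Under Chd4 siRNA it took 89 of 858 cells, or 10.4% (95% exact binomial interval 8.41 to 12.6), and under control siRNA 78 of 816 cells, or 9.56% (7.63 to 11.8). The share of feeder cells differed by less than its counting error.

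The study compared undifferentiated spermatogonia of adult C57BL/6 mice, selected for the surface protein THY1 and kept in serum-free medium with GDNF and bFGF, after transfection with Chd4 siRNA or with control siRNA. Both groups grew on SNL76/7 cells, an embryonic fibroblast line treated with mitomycin, an agent that crosslinks DNA and is used to stop feeder cells from dividing. Per the labels, the spermatogonia were lifted off the feeders and transfected on plastic with 75 pmol siRNA and 2 µL Lipofectamine for 24 h. Whether the feeder cells counted here took up siRNA was not measured apart from their Chd4 level. Cells of 3 biological replicates were mixed in equal numbers before loading, which left 1 library per group and no replicate check for any difference below.

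Feeder fibroblasts lay down collagen and fibronectin, to which spermatogonia attach, and secrete growth factors and chemokines. CHD4 is an ATPase that moves nucleosomes and is the motor of the NuRD complex, which also holds histone deacetylases, metastasis-associated (MTA) scaffold proteins, methyl-CpG-binding domain proteins and GATAD2 subunits. CHD3 is a closely related ATPase that can take the place of CHD4 in the complex.

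The median feeder cell held more UMIs than the median of the other cells. It was 40805 UMIs in 5716 genes under Chd4 siRNA and 38664.5 UMIs in 5825 genes under control siRNA, against 15480 UMIs and 15190 UMIs in the rest of the kept cells of those libraries. Summed over feeder cells, the Chd4 siRNA library held 3580113 UMIs and the control siRNA library 3140140 UMIs in named genes, and gene levels below are UMIs per 1000000 of these sums (CPM). Ratios are given on the log2 scale with Chd4 siRNA on top and control siRNA below, and the interval after it is a 95% interval for counting error only. These intervals take no account of the spread between cells, so a gene carried by a few cells has an interval that is too narrow. Of the 2 libraries' cell barcodes, 1 was shared. UMIs in matrix rows without a gene name here made up a median of 11.1% per feeder cell under Chd4 siRNA and 10.6% under control siRNA, and 6 and 1 feeder cells of those libraries lay above 20%.

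The rule itself sets the marker counts of the cells it took, which are given as a description. A median of 82 fibroblast marker UMIs per feeder cell stood beside 2 germ cell marker UMIs under Chd4 siRNA, and 72.5 stood beside 2 under control siRNA, while the rest of the kept cells had medians of 1 and 30 under Chd4 siRNA and 1 and 27 under control siRNA. At least 3 of the 5 fibroblast markers were found in 87 of 89 Chd4 siRNA cells and in 76 of 78 control siRNA cells. The weakest cells rested on little: 3 and 2 cells of those libraries were taken with fewer than 5 fibroblast marker UMIs. Near the limit, the lowest ratios inside were 6, 8.5 and 9.8 under Chd4 siRNA and 6, 6 and 11 under control siRNA, and the highest outside were 4, 3 and 2.25 under Chd4 siRNA and 2.21, 1 and 1 under control siRNA.

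**Figure D1:**
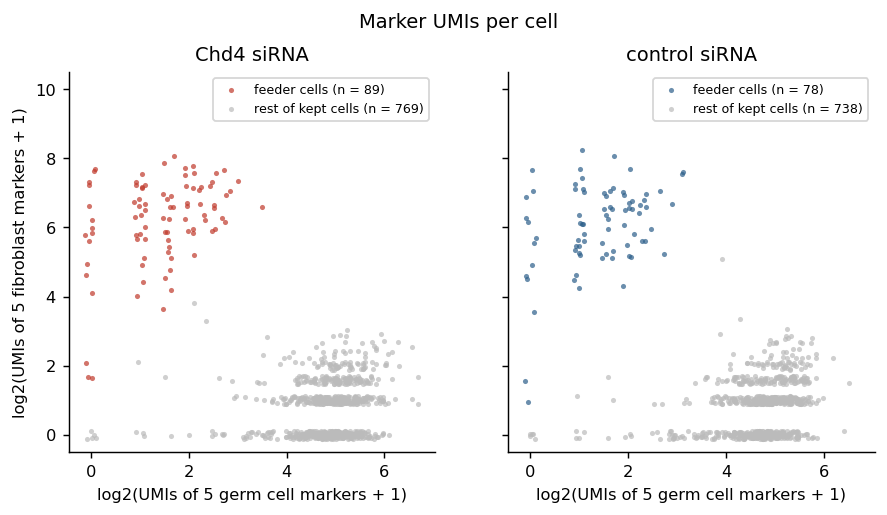
Each point is 1 kept cell of the Chd4 siRNA library (left) or the control siRNA library (right), by its UMIs of the 5 germ cell markers (x axis) and of the 5 fibroblast markers (y axis), both on a log2(UMIs + 1) scale with a small jitter. The 89 and 78 feeder cells form a group at the upper left that lies mostly apart from the rest in both libraries. Exceptions include 3 and 2 feeder cells with fewer than 5 fibroblast marker UMIs. Under Chd4 siRNA, a feeder cell with 12 fibroblast and 2 germ cell marker UMIs also lies beside an outside cell with 12 and 3.

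The label was read against genes the rule did not use, also as a description, since the cells were chosen from their transcripts. Dcn, the collagen-binding proteoglycan decorin, had a level in feeder cells over that in the rest of 42.3 under Chd4 siRNA and 147 under control siRNA. Tnnt2, a troponin of the sarcomere, gave such ratios of 97.3 under Chd4 siRNA and 117 under control siRNA. Hmga2, an embryonic chromatin protein, gave 152 under Chd4 siRNA and 95.5 under control siRNA, and Cd44, the hyaluronan receptor, gave 141 under Chd4 siRNA and 89.8 under control siRNA. Csf1, the macrophage growth factor, gave 61.5 under Chd4 siRNA and 128 under control siRNA, and Prkg2, a cGMP-dependent kinase, gave 60.4 under Chd4 siRNA and 98.5 under control siRNA. Cpe, a carboxypeptidase of the secretory pathway, gave 61.8 under Chd4 siRNA and 87.4 under control siRNA. These genes, with Col1a2, Col3a1, Bgn, Cald1, Cav1, Il1rl1, Ccl2 and Gm26870, were the 15 with the highest ratio of feeder cells to the rest in the control siRNA library.

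The siRNA target was lower in the feeder cells themselves. Chd4 (ENSMUSG00000063870, chromosome 6, 125095981 to 125130591, mm10) had 189 UMIs (52.8 CPM) under Chd4 siRNA and 482 UMIs (153 CPM) under control siRNA, a log2 ratio of −1.54 (−1.79 to −1.29). A Chd4 UMI was found in 74 of 89 cells under Chd4 siRNA and 76 of 78 cells under control siRNA. In the rest of the kept cells the ratio was −1.09 (−1.15 to −1.02), so the feeder ratio lay lower by 0.45 on the log2 scale, with a counting interval of −0.70 to −0.20. Weighting each feeder cell equally gave −1.19, and cells with no Mki67 and no Top2a UMI gave −1.12.

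Chd3, the gene of the paralogous ATPase (ENSMUSG00000018474, chromosome 11, 69343273 to 69369406, mm10), was lower still. Its level was 67 UMIs (18.7 CPM) under Chd4 siRNA and 251 UMIs (79.9 CPM) under control siRNA, a log2 ratio of −2.09 (−2.51 to −1.70), and the rest of the kept cells gave −0.39 (−0.55 to −0.24). The feeder minus rest difference was −1.70 (−2.12 to −1.28). Thus Chd3 ranked ahead of Chd4 among the lower genes by the bound of the interval nearest to 0. Of the 13 NuRD genes with a name here 11 were compared, and Chd3 and Chd4 were the 2 (18.2%) past the fold used below. Both were lower, beside 5.75% lower and 3.52% higher of all genes, and Chd4 is the siRNA target itself. No other subunit passed the fold, though some had intervals clear of 0. Cdk2ap1, a small NuRD-associated subunit, had 77.7 CPM under Chd4 siRNA and 105 CPM under control siRNA, a log2 ratio of −0.44 (−0.68 to −0.21). Gatad2a, a bridging subunit, had 86.6 CPM under Chd4 siRNA and 70.4 CPM under control siRNA and a ratio of 0.30 (0.05 to 0.55), and the scaffold gene Mta1 had 50.8 CPM under Chd4 siRNA and 62.7 CPM under control siRNA and a ratio of −0.30 (−0.60 to −0.01).

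Across genes, most feeder transcripts differed little between the libraries. Of 6471 genes with at least 100 UMIs in the feeder cells of both libraries together, 90.0% lay within 0.5 of 0 on the log2 scale, around a median of −0.004. A gene is called past the fold here when its log2 ratio is at least 0.5 away from 0 and its interval lies on the same side of 0. By this rule 228 genes (3.52%) were higher and 372 genes (5.75%) were lower under Chd4 siRNA, 9.27% in either direction. The excess of lower genes depended on the scaling: DESeq2 size factors gave 333 higher and 305 lower, and TMM scaling 279 higher and 322 lower. Equal weight per cell gave 538 higher and 407 lower. With 1 library per group this is a rule of size and no test. Intervals narrow as UMIs rise, so a list of abundant genes can have more intervals clear of 0 than all genes do. Shares of intervals above or below 0 in the lists below are therefore not like for like with those of all genes. Genes with short transcripts were called lower more often: of the 1294 genes with the shortest transcripts, whose longest transcripts span 183 to 1889 bases, 8.66% were past the fold lower and 2.63% higher, and the part of transcript length in any gene's ratio was not tested.

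**Figure D2:**
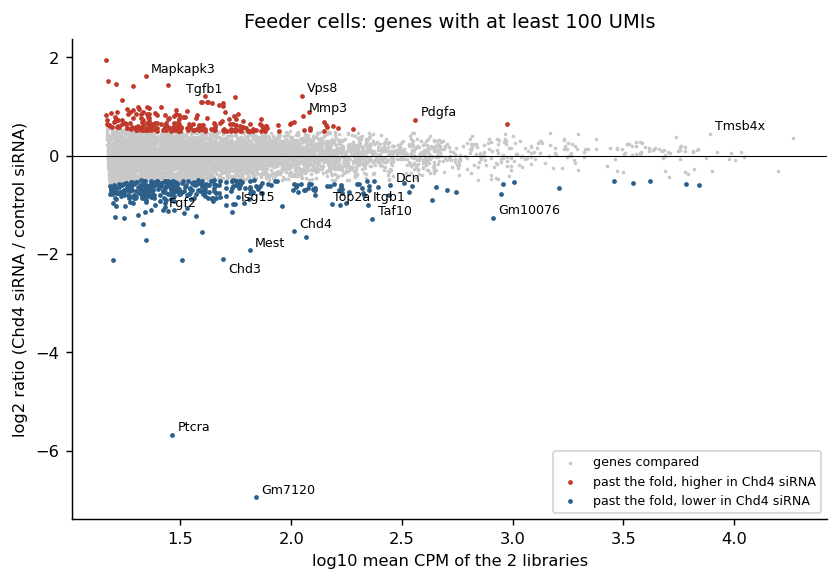
Each point is 1 of the 6471 genes compared in feeder cells, by the log10 of its mean CPM over both libraries (x axis) and its log2 ratio of Chd4 siRNA over control siRNA (y axis). Red points are the 228 genes past the fold higher and blue points the 372 lower; Chd4, Chd3 and Mest lie well below the cloud, and Gm7120 and Ptcra, which 1 control siRNA cell carried, lie lowest.

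The genes that were lowest by the bound of the interval nearest to 0 included Taf10, Polr2l and Itgb1. Taf10, a subunit of TFIID and SAGA, had 486 UMIs (136 CPM) under Chd4 siRNA and 1033 UMIs (329 CPM) under control siRNA, a log2 ratio of −1.28 (−1.44 to −1.12). Polr2l, a small subunit shared by the RNA polymerases, had 395 UMIs (110.3 CPM) under Chd4 siRNA and 695 UMIs (221 CPM) under control siRNA, a ratio of −1.004 (−1.19 to −0.82). Both were nearly as low in the rest of the kept cells, at −1.04 (−1.17 to −0.91) for Taf10 and −0.97 (−1.09 to −0.84) for Polr2l. Itgb1, the beta-1 integrin chain through which fibroblasts hold fibronectin and collagen, was different. It had 529 UMIs (148 CPM) under Chd4 siRNA and 926 UMIs (295 CPM) under control siRNA, a ratio of −0.997 (−1.15 to −0.84), against −0.06 (−0.22 to 0.09) in the rest, and the feeder minus rest difference was −0.93 (−1.15 to −0.72).

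Mest, an imprinted gene of the mesoderm, had 97 UMIs (27.1 CPM) under Chd4 siRNA and 323 UMIs (103 CPM) under control siRNA. Its log2 ratio was −1.92 (−2.27 to −1.59), and −1.65 without the cell with most Mest UMIs in each library, while the rest of the kept cells gave 0.33 (0.00 to 0.67). Abca1, the transporter that exports cholesterol, had 42 UMIs (11.7 CPM) under Chd4 siRNA and 97 UMIs (30.9 CPM) under control siRNA, a ratio of −1.40 (−1.96 to −0.86). Lockd, a noncoding RNA gene beside Cdkn1b, had 72 UMIs (20.1 CPM) under Chd4 siRNA and 186 UMIs (59.2 CPM) under control siRNA, with a ratio of −1.56 (−1.97 to −1.16). Lockd UMIs were found in 15 of 89 cells under Chd4 siRNA and 20 of 78 cells under control siRNA, so few cells carried this difference. Among predicted genes, Gm10076 had 482 CPM under Chd4 siRNA and 1153 CPM under control siRNA, Gm8186 had 56.4 CPM under Chd4 siRNA and 177 CPM under control siRNA and Gm4799 had 5.87 CPM under Chd4 siRNA and 25.5 CPM under control siRNA, with log2 ratios of −1.26, −1.65 and −2.12. The rest of the kept cells gave −1.39 for Gm10076, −1.16 for Gm8186 and −2.23 for Gm4799, so these were not lower in feeder cells alone.

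A single control siRNA feeder cell made the lowest values of all. This cell, with 38465 UMIs, 36 fibroblast marker UMIs and 6 germ cell marker UMIs, held 425 of the 433 control UMIs of Gm7120, a predicted gene, and 174 of the 179 of Ptcra, the pre-T-cell receptor alpha chain. Under Chd4 siRNA each gene had 4 UMIs. The log2 ratios were −6.95 for Gm7120 and −5.67 for Ptcra, and without this cell they were −1.21 and −0.53. Among genes picked after their values were seen, the cell also held 93.0% of the control UMIs of P2rx7, 86.4% of Loxl2, 74.6% of Cxcl1 and 51.6% of Gadd45b. Without it, among the same 6471 genes, 257 genes were past the fold higher and 363 lower, of which 218 and 342 were among those called with it.

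The genes that were highest by the bound nearest to 0 had varied functions. D5Ertd605e, annotated as a long intergenic noncoding RNA gene, had 83 UMIs (23.2 CPM) under Chd4 siRNA and 19 UMIs (6.05 CPM) under control siRNA, a log2 ratio of 1.94 (1.21 to 2.74). Mapkapk3, a kinase downstream of p38, had 119 UMIs (33.2 CPM) under Chd4 siRNA and 34 UMIs (10.8 CPM) under control siRNA, a ratio of 1.62 (1.06 to 2.21). Vps8, a subunit of the endosomal CORVET tether, had 559 UMIs (156 CPM) under Chd4 siRNA and 210 UMIs (66.9 CPM) under control siRNA, a ratio of 1.22 (0.99 to 1.46). In the rest of the kept cells the same 3 genes gave ratios of −0.20, 0.36 and 0.20.

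Kdelr3, a receptor that returns proteins to the endoplasmic reticulum, had 145 UMIs (40.5 CPM) under Chd4 siRNA and 47 UMIs (15 CPM) under control siRNA, a ratio of 1.44 (0.95 to 1.94). Exosc2, of the RNA exosome, had 77.7 CPM under Chd4 siRNA and 34.1 CPM under control siRNA and a ratio of 1.19 (0.86 to 1.52). Plk4, the kinase that starts centriole duplication, had 56.7 CPM under Chd4 siRNA and 24.5 CPM under control siRNA, with a ratio of 1.21 (0.82 to 1.61). The remaining genes of the top 15 were the phosphate transporter gene Slc20a1 at 1.08, the Rab regulator Tbc1d16 at 1.10, the homeobox gene Rhox5 at 1.10, the semaphorin Sema5a at 1.10, the neuritin gene Nrn1 at 1.47, Nol4l at 1.53, Rgs2 at 1.42, and Tgfb1 and Dnajb9, which are given with their groups. Rgs2, an inhibitor of G protein signalling, owed 38 of its 101 Chd4 siRNA UMIs to 1 cell, and gave 1.09 without the top cells. Rhox5 was also higher in the rest of the kept cells, at 1.11 (0.28 to 2.00), though from only 41 UMIs under Chd4 siRNA and 18 under control siRNA.

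Matrix genes, the signature of a fibroblast, split in direction. Of 12 collagen genes compared, none was past the fold higher and 4 (33.3%) were lower, beside 3.52% and 5.75% of all genes. However, 5 of the 12 had intervals above 0, beside 12.7% of all genes, and the median log2 ratio was 0.23. Col1a1, a chain of type I collagen, had 253 CPM under Chd4 siRNA and 198 CPM under control siRNA, a ratio of 0.35 (0.20 to 0.50). Col1a2, the other chain, had 361 CPM under Chd4 siRNA and 316 CPM under control siRNA, a ratio of 0.19 (0.07 to 0.31). Col3a1, type III collagen, went the other way with 447 UMIs (125 CPM) under Chd4 siRNA and 583 UMIs (186 CPM) under control siRNA, a ratio of −0.57 (−0.75 to −0.39). It gave −0.34 without the top cell of each library, since 149 of its control UMIs lay in 1 cell. All 3 genes were part of the cell rule.

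The other lower collagens belong to types V, VI and XVI. Col6a1, of the type VI microfibrils, had 46.6 CPM under Chd4 siRNA and 66.6 CPM under control siRNA, a ratio of −0.51 (−0.82 to −0.21). Col5a1, which sets fibril diameter, had 44.7 CPM under Chd4 siRNA and 63.4 CPM under control siRNA, a ratio of −0.50 (−0.81 to −0.20), and Col16a1 had 21.2 CPM under Chd4 siRNA and 32.8 CPM under control siRNA, a ratio of −0.63 (−1.07 to −0.19). Among 17 genes of collagen modification 1 (5.88%) was past the fold in each direction, beside 3.52% higher and 5.75% lower of all genes. Lox, which crosslinks collagen and elastin, was higher with 69.6 CPM under Chd4 siRNA and 49 CPM under control siRNA, a ratio of 0.50 (0.21 to 0.80). Crtap, of the prolyl 3-hydroxylase complex, was lower with 70.9 CPM under Chd4 siRNA and 101 CPM under control siRNA, a ratio of −0.51 (−0.75 to −0.27). Serpinh1, the collagen chaperone HSP47, had 329.6 CPM under Chd4 siRNA and 281 CPM under control siRNA, a ratio of 0.23 (0.10 to 0.36).

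Glycoproteins and proteoglycans were higher more often than lower by counting error: 9 of 18 had intervals above 0 and 3 had intervals below 0, against 12.7% and 13.8% of all genes compared. Several of the 18 are abundant, which narrows their intervals, so this is not a like comparison. Fn1 and Sparc, which are among these 9, helped to choose the cells, so their levels follow in part from the rule. Past the fold there was 1 gene (5.56%) each way, beside 3.52% higher and 5.75% lower of all genes. Thbs1, thrombospondin 1, was the higher one with 238 UMIs (66.5 CPM) under Chd4 siRNA and 134 UMIs (42.7 CPM) under control siRNA, a ratio of 0.64 (0.33 to 0.96), and Dcn was the lower one with 798 UMIs (223 CPM) under Chd4 siRNA and 1063 UMIs (339 CPM) under control siRNA, a ratio of −0.60 (−0.74 to −0.47). Spp1, the phosphoprotein osteopontin, had 1713 CPM under Chd4 siRNA and 1249 CPM under control siRNA, a ratio of 0.46 (0.40 to 0.51). It varied strongly between cells: 943 of its 3923 control UMIs lay in 1 cell, and without the top cells the ratio was 0.74. In feeder cells with no Mki67 and no Top2a UMI it was −0.15. Fn1, fibronectin, had 1289.9 CPM under Chd4 siRNA and 1134 CPM under control siRNA, a ratio of 0.19 (0.12 to 0.25). Bgn, the proteoglycan biglycan, had 1362 CPM under Chd4 siRNA and 1224 CPM under control siRNA, a ratio of 0.15 (0.09 to 0.22). Postn, periostin, had 115 CPM under Chd4 siRNA and 81.5 CPM under control siRNA, a ratio of 0.50 (0.27 to 0.73), and Vcan, versican, had 39.4 CPM under Chd4 siRNA and 55.1 CPM under control siRNA, a ratio of −0.48 (−0.82 to −0.16).

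Proteases showed 1 gene (7.69%) past the fold higher among 13 and none lower, beside 3.52% and 5.75% of all genes. Mmp3, stromelysin 1, had 518 UMIs (145 CPM) under Chd4 siRNA and 259 UMIs (82.5 CPM) under control siRNA, a log2 ratio of 0.81 (0.59 to 1.03), and 0.68 without the top cells. The tissue inhibitors of these enzymes did not move as one. Timp1 had 1901 CPM under Chd4 siRNA and 1509.8 CPM under control siRNA, a ratio of 0.33 (0.28 to 0.39). Timp2 had 396 CPM under Chd4 siRNA and 487 CPM under control siRNA, a ratio of −0.30 (−0.41 to −0.20), and Timp3 had 228 CPM under Chd4 siRNA and 322 CPM under control siRNA, a ratio of −0.50 (−0.63 to −0.36). A single Chd4 siRNA cell held 253 of the 817 Timp3 UMIs of its library, and the ratio without the top cells was −0.85. The lysosomal cathepsin gene Ctsb had 415 CPM under Chd4 siRNA and 299.7 CPM under control siRNA, a ratio of 0.47 (0.35 to 0.59). Of 12 genes of the TGF-beta and YAP response, 6 had intervals above 0 and 2 below 0, beside 12.7% and 13.8% of all genes, with a median of 0.23. Yet Pmepa1, a TGF-beta feedback gene, had 337 CPM under Chd4 siRNA and 445 CPM under control siRNA, a ratio of −0.40 (−0.51 to −0.29).

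Ligands that feeder cells secrete differed in both directions. Of 23 growth factor genes, 5 (21.7%) were higher and 3 (13.0%) lower, beside 3.52% and 5.75% of all genes. Tgfb1 had 205 UMIs (57.3 CPM) under Chd4 siRNA and 84 UMIs (26.8 CPM) under control siRNA, a ratio of 1.10 (0.72 to 1.48), against 0.37 (0.23 to 0.51) in the rest of the kept cells. Pdgfa, the A chain of platelet-derived growth factor, had 1625 UMIs (454 CPM) under Chd4 siRNA and 859 UMIs (274 CPM) under control siRNA, a ratio of 0.73 (0.61 to 0.85). In the rest it gave −0.01 (−0.10 to 0.09), and the feeder minus rest difference was 0.74 (0.58 to 0.89). Inhba, the activin A subunit, had 215 UMIs (60.1 CPM) under Chd4 siRNA and 116 UMIs (36.9 CPM) under control siRNA, a ratio of 0.70 (0.37 to 1.04).

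On the lower side was Fgf2, the gene of basic FGF, the factor that the culture medium also supplies. It had 60 UMIs (16.8 CPM) under Chd4 siRNA and 113 UMIs (36 CPM) under control siRNA, a ratio of −1.10 (−1.58 to −0.64), with a UMI in 34 of 89 cells under Chd4 siRNA and 46 of 78 cells under control siRNA. Cxcl12, the chemokine that holds CXCR4-bearing stem cells near stroma, had 618 UMIs (173 CPM) under Chd4 siRNA and 873 UMIs (278 CPM) under control siRNA, a ratio of −0.69 (−0.84 to −0.54). Grem1, a BMP antagonist, had 248 CPM under Chd4 siRNA and 329.6 CPM under control siRNA, a ratio of −0.41 (−0.54 to −0.28), and Hbegf, an EGF receptor ligand, had 269 CPM under Chd4 siRNA and 199 CPM under control siRNA, a ratio of 0.44 (0.29 to 0.58). Gdnf, the factor that maintains spermatogonial stem cells and that the medium supplies, was chosen after its values were seen. It was at the edge of detection with 30 UMIs (8.38 CPM) under Chd4 siRNA and 25 UMIs (7.96 CPM) under control siRNA, too few for comparison.

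Among 13 chemokine and cytokine genes, 4 (30.8%) were past the fold higher and 1 (7.69%) was lower, beside 3.52% and 5.75% of all genes, with a median of 0.25. Il11, an interleukin 6 family cytokine, had 27.9 CPM under Chd4 siRNA and 15 CPM under control siRNA, a ratio of 0.90 (0.39 to 1.43), and Lif, of the same family, had 26.8 CPM under Chd4 siRNA and 16.2 CPM under control siRNA, a ratio of 0.72 (0.22 to 1.24). Ccl5, a chemokine of inflamed cells, had 36.3 CPM under Chd4 siRNA and 22.9 CPM under control siRNA, a ratio of 0.66 (0.24 to 1.10), but its UMIs lay in 8 of 89 cells under Chd4 siRNA and 4 of 78 cells under control siRNA, and the ratio was 1.07 without the top cells. Ccl2, the monocyte chemokine, had 800.3 CPM under Chd4 siRNA and 687 CPM under control siRNA, a ratio of 0.22 (0.14 to 0.30), and Mif had 1015 CPM under Chd4 siRNA and 1182 CPM under control siRNA, a ratio of −0.22 (−0.29 to −0.15). Without the single control cell described above the median of this list was 0.42.

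Of 15 receptors and transcription factors of the fibroblast lineage compared, 2 (13.3%) were past the fold lower and none higher, beside 5.75% and 3.52% of all genes. The median was −0.18 and 6 intervals lay below 0, beside 13.8% of all genes. Nfib, a nuclear factor I gene, had 162 UMIs (45.2 CPM) under Chd4 siRNA and 262 UMIs (83.4 CPM) under control siRNA, a ratio of −0.88 (−1.17 to −0.59), against 0.23 (−0.04 to 0.49) in the rest of the kept cells. Pdgfra, the receptor that PDGF-A binds, had 106 UMIs (29.6 CPM) under Chd4 siRNA and 164 UMIs (52.2 CPM) under control siRNA, a ratio of −0.82 (−1.19 to −0.46). The mesenchymal factors Zeb1, Runx2 and Twist2 stood at −0.40, −0.38 and −0.44, each with an interval below 0.

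Of 18 integrin and adhesion genes, Itgb1 was past the fold lower and Zyx, a focal adhesion protein, higher with 89.7 CPM under Chd4 siRNA and 63.4 CPM under control siRNA, a ratio of 0.50 (0.24 to 0.76). Each is 5.56% of the list, beside 5.75% lower and 3.52% higher of all genes. No cytoskeletal gene of 22 was past the fold, beside those same shares of all genes. Within that list Tmsb4x, the actin-sequestering thymosin beta-4, had 8949 CPM under Chd4 siRNA and 6572 CPM under control siRNA, a ratio of 0.45 (0.42 to 0.47), while Tmsb10, its relative, had 5414 CPM under Chd4 siRNA and 6962 CPM under control siRNA, a ratio of −0.36 (−0.39 to −0.33). The actin gene Actb had 2779 CPM under Chd4 siRNA and 3502 CPM under control siRNA, a ratio of −0.33 (−0.37 to −0.29). The intervals of these abundant genes are narrow because they count only sampling of molecules.

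Many cell cycle genes were lower. Of 23 S phase genes, 10 (43.5%) were past the fold lower and none higher, beside 5.75% lower and 3.52% higher of all genes, with a median log2 ratio of −0.47, and 10 intervals included 0. Of 32 G2/M genes, 12 (37.5%) were lower and none higher, with a median of −0.40, while 13 intervals included 0 and 1 lay above 0. In the rest of the kept cells the same lists had medians of 0.02 and −0.03. Summed, S phase genes took 842 CPM of feeder UMIs under Chd4 siRNA and 1164 CPM under control siRNA, and G2/M genes took 1765 CPM and 2304 CPM under those siRNAs.

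**Figure D3:**
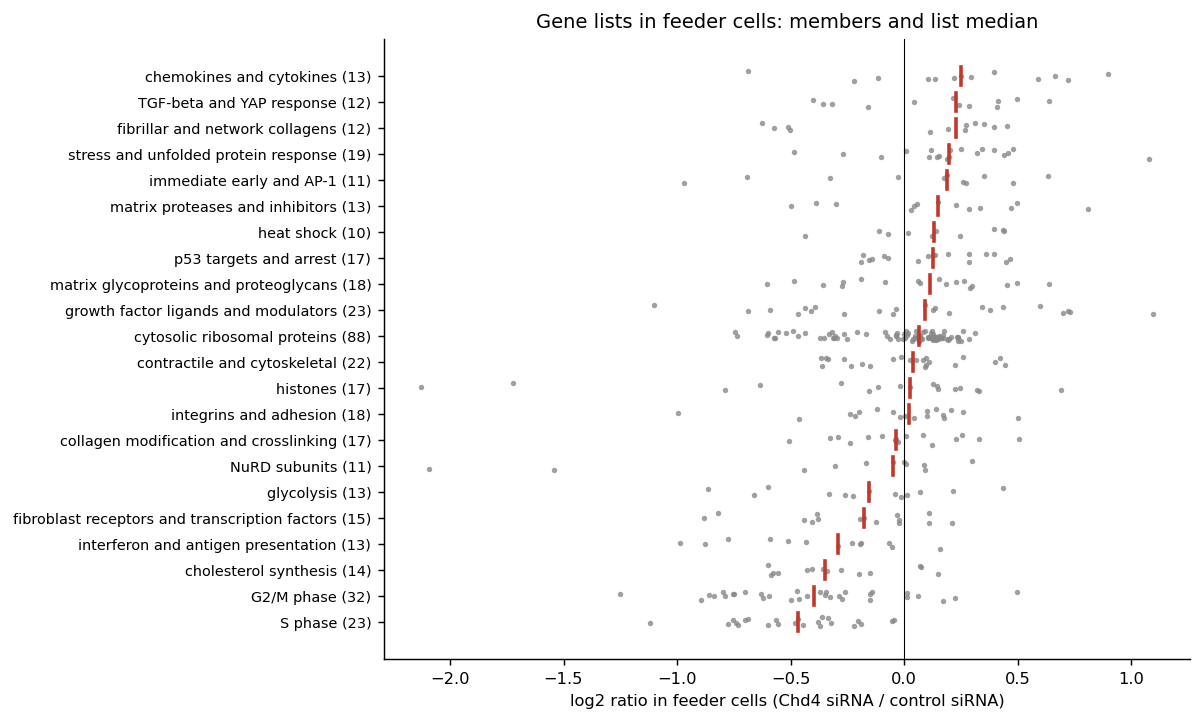
Each grey point is the log2 ratio (Chd4 siRNA over control siRNA) in feeder cells of 1 list member with at least 100 UMIs, and each red bar is the list's median, with the number of members compared in brackets. The S phase and G2/M lists have the lowest medians, −0.47 and −0.40, and the chemokine list the highest, 0.25.

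By role, S phase genes included Rrm1, a subunit of the enzyme that makes deoxynucleotides, with 29.6 CPM under Chd4 siRNA and 50.6 CPM under control siRNA, a ratio of −0.77 (−1.14 to −0.41). Dut, which removes dUTP, had 277 UMIs (77.4 CPM) under Chd4 siRNA and 395 UMIs (126 CPM) under control siRNA, a ratio of −0.70 (−0.93 to −0.48). Pola1, the primase-linked DNA polymerase, had 17.6 CPM under Chd4 siRNA and 38.2 CPM under control siRNA, a ratio of −1.12 (−1.58 to −0.67), but 44 of its 120 control UMIs lay in 1 cell, and the ratio was −0.58 without the top cells. Pola1 was also lower in the rest of the kept cells, at −0.64 (−0.85 to −0.42). Mcm7, of the replicative helicase, had 29 CPM under Chd4 siRNA and 46.8 CPM under control siRNA, a ratio of −0.69 (−1.06 to −0.32), and Tipin, of the fork protection complex, had 49.7 CPM under Chd4 siRNA and 83.1 CPM under control siRNA, a ratio of −0.74 (−1.02 to −0.46). Of the G2/M genes, Hmgb2, a DNA-bending protein, had 453 UMIs (127 CPM) under Chd4 siRNA and 667 UMIs (212 CPM) under control siRNA, a ratio of −0.75 (−0.92 to −0.57). Cenpa, the centromeric histone H3, had 351 UMIs (98 CPM) under Chd4 siRNA and 500 UMIs (159 CPM) under control siRNA, a ratio of −0.70 (−0.90 to −0.50). The cyclin gene Ccna2 had 19 CPM under Chd4 siRNA and 35.3 CPM under control siRNA, a ratio of −0.90 (−1.35 to −0.45). Ccnb2, a cyclin of mitosis, had 34 UMIs (9.50 CPM) under Chd4 siRNA and 71 UMIs (22.6 CPM) under control siRNA, a ratio of −1.25 (−1.89 to −0.64). In feeder cells with no Mki67 and no Top2a UMI its ratio was 1.28, but this rests on only a part of those few UMIs.

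G2/M genes are known to share promoter elements, the CHR (TTTGAA), through which the DREAM complex represses them in resting cells, and the CCAAT box, which NF-Y binds. The promoters of the lower members Ccnb2 and Top2a are shown for these elements, 250 bases before to 50 after the start, 5′ to 3′ on the minus strand, from RefSeq on GRCm38.p6, with CHR and CCAAT letters of either orientation in capitals. The Ccnb2 window is chr9:70421505-70421804 and the Top2a window is chr11:99024140-99024439.
Ccnb2: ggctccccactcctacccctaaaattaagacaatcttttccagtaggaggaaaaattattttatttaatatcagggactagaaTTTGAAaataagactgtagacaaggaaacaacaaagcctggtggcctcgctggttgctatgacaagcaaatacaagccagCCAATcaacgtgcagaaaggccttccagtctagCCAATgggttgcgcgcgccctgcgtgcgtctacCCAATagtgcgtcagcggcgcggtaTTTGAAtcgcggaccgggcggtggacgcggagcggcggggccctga
Top2a: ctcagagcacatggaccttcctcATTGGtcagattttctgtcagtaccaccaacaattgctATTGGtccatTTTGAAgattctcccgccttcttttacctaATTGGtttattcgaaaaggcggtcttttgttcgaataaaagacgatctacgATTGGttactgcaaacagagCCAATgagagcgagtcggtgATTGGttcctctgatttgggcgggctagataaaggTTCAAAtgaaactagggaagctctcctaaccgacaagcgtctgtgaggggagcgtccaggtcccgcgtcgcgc
A promoter was found for 29 of the 32 G2/M genes. Searched on both strands, TTTGAA occurred in 22 of them (75.9%) against 20.2% of 27025 genes, and CCAAT in 23 (79.3%) against 41.1%. Of the 11 members past the fold lower with a promoter, 8 held TTTGAA and 9 held CCAAT. The lists were drawn up by function, so these shares describe the lists and not the siRNA difference. For S phase genes, an E2F element written TTTNNCGC occurred in 8 of 17 promoters (47.1%) against 5.93% of all genes, and in 4 of 9 promoters of members past the fold lower. Such a match is a description of letters and not a site, and no TTTGAA match shares letters with a CCAAT match in the windows shown.

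Mki67, a coat protein of mitotic chromosomes, and Top2a, the topoisomerase that untangles them, mark cells in cycle, a state that mitomycin treatment of feeders is used to block. Mki67 had 84 UMIs (23.5 CPM) under Chd4 siRNA and 73 UMIs (23.2 CPM) under control siRNA, a ratio of 0.01 (−0.46 to 0.49). Top2a had 410 UMIs (115 CPM) under Chd4 siRNA and 553 UMIs (176 CPM) under control siRNA, a ratio of −0.62 (−0.81 to −0.43), against 0.03 (−0.07 to 0.12) in the rest of the kept cells. At least 1 UMI of either gene was found in 42 of 89 feeder cells (47.2%) under Chd4 siRNA and in 52 of 78 (66.7%) under control siRNA, a difference of −19.5 percentage points (−33.3 to −4.41).

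Depth sets such a share, so cells were also taken at 9000 UMIs each, which left out 6 shallower cells under Chd4 siRNA and 4 under control siRNA. The expected share over all ways to thin was 25.6% (16.7 to 36.4) of 83 cells under Chd4 siRNA and 35.4% (24.6 to 47.4) of 74 cells under control siRNA. The difference was −9.74 points (−23.7 to 4.58), which lies within counting error. With at least 2 UMIs the thinned shares were 15.6% under Chd4 siRNA and 20.9% under control siRNA. For comparison, the thinned shares in the rest of the kept cells were 42.6% under Chd4 siRNA and 42.3% under control siRNA.

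A small group of cells held nearly all of these UMIs. In 11 of 89 feeder cells (12.4%) under Chd4 siRNA and 15 of 78 (19.2%) under control siRNA there were at least 10 UMIs of the pair, and they held 88.3% and 88.0% of all such UMIs in those libraries. G2/M genes took 6359 CPM in these cells under Chd4 siRNA and 6630 CPM under control siRNA. In cells with no UMI of the pair they took 685 CPM under Chd4 siRNA and 715 CPM under control siRNA. S phase genes took 2310.0 CPM under Chd4 siRNA and 2611 CPM under control siRNA in the cells with at least 10 UMIs, and 429 CPM and 572 CPM in the cells with none. Top2a is itself a member of the G2/M list, so the split of cells and these levels are not independent. Fibroblast markers stood at 1669 CPM and 1870 CPM in the cells with at least 10 UMIs of those libraries, and germ cell markers outside the rule at 90.6 CPM and 119 CPM, which compares with 2355 CPM and 2256 CPM in the rest of the kept cells. In feeder cells with no Mki67 and no Top2a UMI the S phase median was −0.07 and the G2/M median −0.02. These medians cover only list members that reached 100 UMIs in those cells. The S phase sum there was still lower, at 429 CPM under Chd4 siRNA and 572 CPM under control siRNA, so the median does not show that the difference was absent. Among all genes compared in those cells, 287 were past the fold higher and 184 lower. There were 47 such cells under Chd4 siRNA and 26 under control siRNA, and fewer genes reached 100 UMIs. Whether the number of cells in cycle sets the cell cycle ratios was not tested further.

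**Figure D4:**
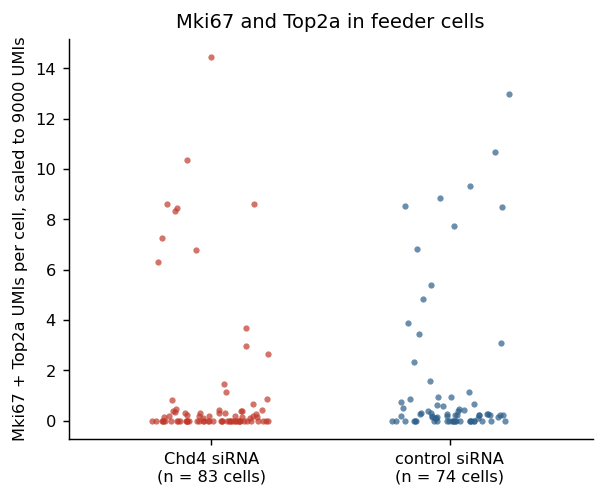
Each point is 1 feeder cell with at least 9000 UMIs, 83 under Chd4 siRNA (left) and 74 under control siRNA (right), and the y axis gives its Mki67 plus Top2a UMIs scaled to a depth of 9000 UMIs. Most cells lie near 0 in both libraries, and a separate upper group is made up mainly of the 11 and 15 cells with at least 10 unscaled UMIs.

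As a measure of free RNA, germ cell markers outside the rule stood in feeder cells at 3.59% of their level in the rest under Chd4 siRNA and 5.18% under control siRNA, whereas Mki67 stood at 76.6% and 70.6% and Top2a at 71.2% and 112%. At 9000 UMIs a Tex101 UMI, a germ cell surface protein transcript, was found in 8.03% of feeder cells under Chd4 siRNA and 6.78% under control siRNA, and in 79.0% and 77.9% of the rest. Both median depths are those given above.

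No gene of the arrest list passed the fold, beside 3.52% higher and 5.75% lower of all genes, so a list this short can hold none. Of 17 p53 targets and arrest genes, 7 had intervals above 0, beside 12.7% of all genes, none had an interval below 0 and 10 included 0, with a median of 0.13. Cdkn1a, the p21 inhibitor of cyclin-dependent kinases, had 3150 UMIs (879.9 CPM) under Chd4 siRNA and 2269 UMIs (723 CPM) under control siRNA, a ratio of 0.28 (0.21 to 0.36), and 0.43 without the top cells. Cdkn2b, the p15 inhibitor, had 88.8 CPM under Chd4 siRNA and 67.5 CPM under control siRNA, a ratio of 0.40 (0.14 to 0.65). Btg2, an antiproliferative p53 target, had 43.6 CPM under Chd4 siRNA and 31.5 CPM under control siRNA, a ratio of 0.47 (0.09 to 0.85), and Ei24 had 112 CPM under Chd4 siRNA and 82.2 CPM under control siRNA, a ratio of 0.45 (0.22 to 0.68).

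Some interferon-stimulated genes were lower in feeder cells. Of 13 genes of interferon response and antigen presentation, 5 (38.5%) were past the fold lower, beside 5.75% of all genes, and none higher, while 5 intervals included 0 and 1 lay above 0. The median was −0.29, against a median of 0.17 in the rest of the kept cells. Isg15, a ubiquitin-like modifier that interferon induces, had 134 UMIs (37.4 CPM) under Chd4 siRNA and 233 UMIs (74.2 CPM) under control siRNA, a ratio of −0.99 (−1.30 to −0.67). In the rest it had 24.6 CPM under Chd4 siRNA and 20.3 CPM under control siRNA, a ratio of 0.28 (0.03 to 0.53), and the feeder minus rest difference was −1.27 (−1.66 to −0.88). Bst2, tetherin, had 304 UMIs (84.9 CPM) under Chd4 siRNA and 402 UMIs (128 CPM) under control siRNA, a ratio of −0.59 (−0.81 to −0.37), Oasl2, an oligoadenylate synthetase-like protein, had 20.1 CPM under Chd4 siRNA and 36.9 CPM under control siRNA, a ratio of −0.88 (−1.32 to −0.44), and H2-K1, a class I heavy chain, had 166 CPM under Chd4 siRNA and 224 CPM under control siRNA, a ratio of −0.43 (−0.59 to −0.27). Isg15 UMIs were found in 42 of 89 cells under Chd4 siRNA and 44 of 78 cells under control siRNA. In feeder cells with no Mki67 and no Top2a UMI the list's median was 0.06, the Isg15 ratio −0.18 and the Bst2 ratio 0.09.

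The Isg15 promoter holds tandem letters of the ISRE, the element through which interferon acts, searched on both strands as a pair of GAAA runs set 2 bases apart, and is shown for them with the matched letters in capitals. It spans chr4:156200769-156201068 on the minus strand of GRCm38.p6 (RefSeq), 5′ to 3′.
Isg15: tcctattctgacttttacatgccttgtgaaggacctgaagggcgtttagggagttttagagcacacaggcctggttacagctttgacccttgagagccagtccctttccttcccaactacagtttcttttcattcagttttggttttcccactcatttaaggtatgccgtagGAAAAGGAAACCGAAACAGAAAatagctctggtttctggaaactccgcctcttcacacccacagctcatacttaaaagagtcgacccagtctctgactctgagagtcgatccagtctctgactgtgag
The 3 matches overlap in 1 run. The element occurred in 6 of the 11 interferon list promoters found (54.5%) against 3.99% of all genes. Of the 4 members past the fold lower with a promoter, 2 held it. The list was drawn up by function, so this share describes the list and not the siRNA difference.

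Of 14 cholesterol synthesis genes compared, 4 (28.6%) were past the fold lower, beside 5.75% of all genes, and none higher, while 7 intervals included 0, with medians of −0.35 in feeder cells and 0.14 in the rest. Idi1, the isomerase of isopentenyl diphosphate, had 31.8 CPM under Chd4 siRNA and 47.5 CPM under control siRNA, a ratio of −0.58 (−0.94 to −0.21), and Fdft1, squalene synthase, had 24 CPM under Chd4 siRNA and 35.3 CPM under control siRNA, a ratio of −0.56 (−0.98 to −0.14). Weighting each cell equally gave a list median of −0.05.

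Glycolysis genes did not move together. Of 13 compared, 3 (23.1%) were past the fold lower and none higher, beside 5.75% and 3.52% of all genes, with a median of −0.15. Hk2, the inducible hexokinase, had 45 CPM under Chd4 siRNA and 71 CPM under control siRNA, a ratio of −0.66 (−0.96 to −0.36), and Pdk1, a pyruvate dehydrogenase kinase, had 13.1 CPM under Chd4 siRNA and 23.9 CPM under control siRNA, a ratio of −0.86 (−1.42 to −0.32). Gapdh had 1065 CPM under Chd4 siRNA and 788 CPM under control siRNA, a ratio of 0.43 (0.36 to 0.51). Pgk1, the third lower gene, had 20.4 CPM under Chd4 siRNA and 30.9 CPM under control siRNA, a ratio of −0.60 (−1.06 to −0.15).

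Among 19 stress and unfolded protein response genes, 1 (5.26%) was past the fold higher and none lower, beside 3.52% and 5.75% of all genes, and the median was 0.20. Dnajb9, a cochaperone of the endoplasmic reticulum, had 214 UMIs (59.8 CPM) under Chd4 siRNA and 89 UMIs (28.3 CPM) under control siRNA, a ratio of 1.08 (0.71 to 1.45), with 45 of the Chd4 siRNA UMIs in 1 cell and a ratio of 0.85 without the top cells. Atf4, the transcription factor of the integrated stress response, had 171 CPM under Chd4 siRNA and 123 CPM under control siRNA, a ratio of 0.48 (0.29 to 0.67), and Manf had 260.0 CPM under Chd4 siRNA and 189 CPM under control siRNA, a ratio of 0.46 (0.31 to 0.61). Of 10 heat shock genes none was past the fold, beside 3.52% higher and 5.75% lower of all genes. Hsp90ab1, with 2275 CPM under Chd4 siRNA and 1674 CPM under control siRNA, a ratio of 0.44 (0.39 to 0.49), had the highest ratio of them.

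Immediate early genes split, with 1 (9.09%) past the fold higher and 2 (18.2%) lower, beside 3.52% and 5.75% of all genes. Of 11 compared, Junb was past the fold higher with 622 UMIs (174 CPM) under Chd4 siRNA and 352 UMIs (112 CPM) under control siRNA, a ratio of 0.63 (0.44 to 0.82). Jun, the other partner in AP-1 dimers, was past it lower with 346 UMIs (96.6 CPM) under Chd4 siRNA and 490 UMIs (156 CPM) under control siRNA, a ratio of −0.69 (−0.89 to −0.49), against 0.29 (0.12 to 0.46) in the rest. Klf4, a zinc finger factor of quiescence and pluripotency, was also lower with 132 UMIs (36.9 CPM) under Chd4 siRNA and 227 UMIs (72.3 CPM) under control siRNA, a ratio of −0.97 (−1.29 to −0.66). Without the top cell of each library the ratios were 0.81 for Junb, −0.57 for Jun and −0.98 for Klf4.

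Ribosomal protein genes were tightly measured and fell into both directions: of 88 compared, 50 had intervals above 0 and 29 below, and the median was 0.06. Of all genes, 12.7% had intervals above 0 and 13.8% below, but most are less abundant and have wider intervals. Past the fold, 8 (9.09%) were lower and none higher, beside 5.75% and 3.52% of all genes. Rps29, with 5532 CPM under Chd4 siRNA and 8371 CPM under control siRNA, gave −0.60 (−0.62 to −0.57), and Rps28, with 4898 CPM under Chd4 siRNA and 7259.6 CPM under control siRNA, gave −0.57 (−0.60 to −0.54). Rpl29 gave −0.74 (−0.87 to −0.62) and Rpl35 gave −0.56 (−0.59 to −0.52). The rest of the kept cells gave −0.64 for Rps29, −0.69 for Rps28, −0.72 for Rpl29 and −0.61 for Rpl35, which lie near the feeder values. Ribosomal protein genes have many near-identical copies in the genome, and the part of reads split between copies in these values was not tested.

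Replication-dependent histone genes, whose transcripts mostly lack a poly(A) tail, are captured poorly by this chemistry. Of 17 histone genes compared, 4 (23.5%) were past the fold lower and 1 (5.88%) was higher, beside 5.75% and 3.52% of all genes. Hist1h2ak had 43 UMIs (12 CPM) under Chd4 siRNA and 165 UMIs (52.5 CPM) under control siRNA, a ratio of −2.13 (−2.65 to −1.64), and Hist1h2ap had 37 UMIs (10.3 CPM) under Chd4 siRNA and 107 UMIs (34.1 CPM) under control siRNA, a ratio of −1.72 (−2.30 to −1.17). Their UMIs lay in 17 of 89 and 14 of 89 cells under Chd4 siRNA and in 31 of 78 and 21 of 78 cells under control siRNA. In the rest of the kept cells Hist1h2ak gave −0.41 (−0.80 to −0.03) and Hist1h2ap −1.23 (−1.41 to −1.05), so neither was lower in feeder cells alone. These genes are close copies of one another, so their single values are uncertain. H1f0, the replacement linker histone of resting cells, was the higher one with 620 UMIs (173 CPM) under Chd4 siRNA and 337 UMIs (107 CPM) under control siRNA, a ratio of 0.69 (0.50 to 0.89).

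Set beside the rest of the kept cells, which are mostly germ cells, several of these differences had the opposite sign. The feeder minus rest difference was −1.79 (−2.45 to −1.13) for Dcn, −0.98 (−1.24 to −0.72) for Jun and −0.80 (−1.04 to −0.57) for Bst2. Itgb1 and Pdgfa were past the fold in feeder cells, while their intervals in the rest included 0. Taf10, Polr2l and Gm10076 differed by 0.24 or less in size between the 2 kinds of cells. These differences carry counting intervals, compare the same 2 libraries and have no replicate check.

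**Figure D5:**
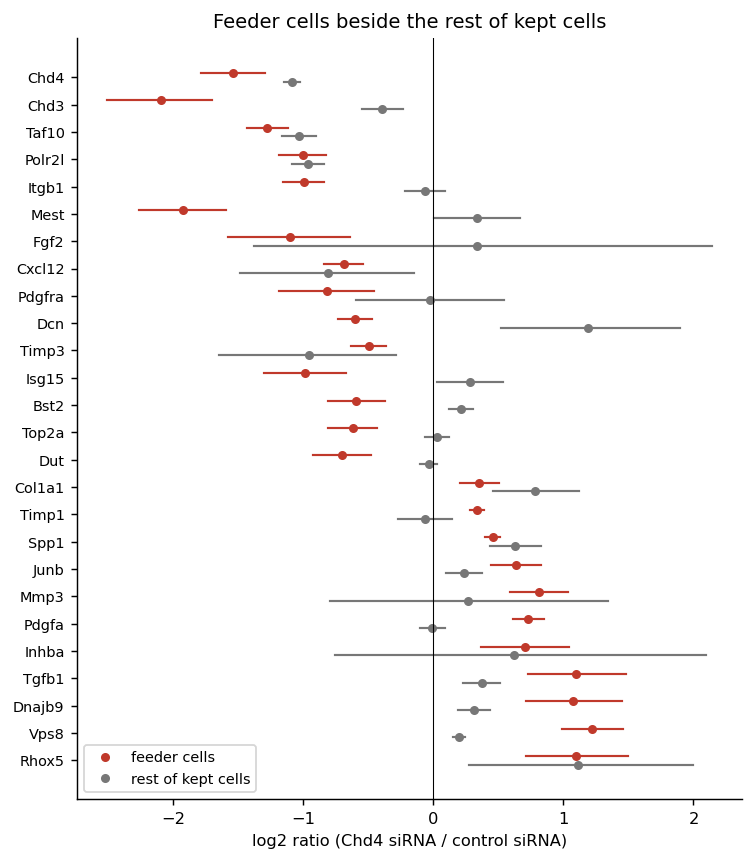
For 26 named genes, points give the log2 ratio of Chd4 siRNA over control siRNA (x axis) in feeder cells (red) and in the rest of the kept cells (grey), and lines give 95% counting intervals. Taf10 and Polr2l are low in both kinds of cells. The grey intervals of Itgb1 and Pdgfa include 0, while the red points lie at −0.997 and 0.73.

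Feeder cells varied among themselves far beyond counting error in some abundant genes. The Fano factor, the variance over the mean of UMIs per cell thinned to 9000 UMIs, is 1 for pure counting. It was 71.3 under Chd4 siRNA and 27.7 under control siRNA for Spp1, and 42.4 and 38.4 under those siRNAs for Tmsb4x. For Actb it was 51.5 under Chd4 siRNA and 37.1 under control siRNA, and for Ftl1, ferritin light chain, 52.5 and 29.7. Timp1 gave 27.7 and 17.6, and Ccl2 gave 22.4 and 12.4. Gm26870, a predicted gene, gave 19.2 under Chd4 siRNA and 33.5 under control siRNA. Ubb, a polyubiquitin gene, gave 12.7 under Chd4 siRNA and 28.8 under control siRNA, so the order of genes differed between the libraries.

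Markers of other cell types that a testis culture could hold were counted in feeder cells. Leydig cell markers had 2 UMIs in all under Chd4 siRNA and 1 under control siRNA, with 5 of 6 markers at 0. Macrophage and leukocyte markers had 30 and 8 UMIs in those libraries, with 6 of 9 at 0, and epithelial markers 27 and 10 UMIs. Peritubular myoid and smooth muscle markers had 87 UMIs under Chd4 siRNA and 71 under control siRNA, mostly of Smtn with 67 UMIs (18.7 CPM) under Chd4 siRNA and 58 UMIs (18.5 CPM) under control siRNA. Endothelial markers had 117 UMIs under Chd4 siRNA and 55 under control siRNA, mostly of Egfl7 with 25.4 CPM under Chd4 siRNA and 13.4 CPM under control siRNA, a ratio of 0.93 (0.38 to 1.49). Sertoli cell markers had 1024 UMIs under Chd4 siRNA and 837 under control siRNA, with 1 of 9 markers, Fshr, at 0. Most of these UMIs were of Sox9, which is not limited to Sertoli cells. Sox9 had 738 UMIs (206 CPM) under Chd4 siRNA and 699 UMIs (223 CPM) under control siRNA. Rhox5 had 193 UMIs (53.9 CPM) under Chd4 siRNA and 79 UMIs (25.2 CPM) under control siRNA. The remaining Sertoli cell markers held the rest of these UMIs, and each was detected in feeder cells. Scrublet called 9 doublets in the Chd4 siRNA library and 18 in the control siRNA library, and none of them was a feeder cell. The part of other cell types in the results was not tested.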

How the data were processed

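The deposited matrices hold UMI counts per gene and cell, whole numbers with no normalization per the file headers and the values, made with 10x Genomics v2 chemistry per the labels' protocols. The submitters' processing notes name Cell Ranger 2.1.0, Seurat and mm10 without their roles; how cells were called is not stated. The gene lists used here name 26893 of 27998 rows, and the other 1105, with 12.6% of UMIs in the Chd4 siRNA library and 12.1% in the control siRNA library, stayed out of totals. Each matrix ended inside its last cell, which was left out, and a minimum of 1000 UMIs per cell removed 2 and 0 cells of those libraries. Totals in named genes were 15920307 and 14826257 UMIs.

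Feeder UMIs were summed per library and divided by their total (CPM). Ratios have exact conditional binomial (Clopper-Pearson) 95% intervals, shares exact binomial and their differences Newcombe intervals, and differences of log2 ratios normal ones, all for counting error only. No p-value was computed, since each group is 1 library. Thinned shares are hypergeometric expectations over all ways to draw 9000 UMIs from a cell.

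Genes were named by rule: Chd4, Mki67, Top2a, the 10 genes of the cell rule, the 15 highest and 15 lowest by the interval bound nearest to 0, up to 5 members per list by that bound, the most abundant matrix and ligand genes, the 10 most abundant genes, the 15 highest in feeder cells over the rest and the 12 with the highest Fano factors. Some of these are not reported here. The members and the 31 lists were chosen with earlier results of these data known. Positions and lengths (6469 of 6471 genes) came from a GENCODE annotation of the mm10 assembly, promoters from RefSeq.

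Tools were Python 3.11.15, scipy 1.17.1, scanpy 1.11.5 (Scrublet, expected rate 1%), edgeR 4.0.16 (TMM) and DESeq2 1.42.0 (size factors), the last 2 for scaling only. In simulated data for this comparison over 6471 genes, 95.8% of intervals covered the true ratio and 78 of 6271 unchanged genes (1.24%) were past the fold. These are not error rates for the real cells, whose Fano factors reached 71.3 and whose spread between replicates could not be measured with 1 library per group. Alternatives were other scalings, equal weight per cell, thinning, other minimums and cell rules, cells with no Mki67 and no Top2a UMI, removal of doublets or of each gene's top cell, and, chosen after seeing the data, removal of the control siRNA cell rich in Gm7120.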

Additional observations from a re-analysis of the deposited data

Results flagged for a closer look

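A set of 14 named genes had a log2 ratio of Chd4 siRNA over control siRNA on one side of 0 in feeder cells and on the other side in the rest of the kept cells, with both counting intervals clear of 0. Whether these differences between kinds of cells hold across replicates was not tested. The values below are feeder minus rest on the log2 scale.

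Mest, an imprinted gene, with a ratio of −1.92 in feeder cells, gave −2.26, and Dcn, with −0.60 in feeder cells, gave −1.79. Fn1, one of the genes that chose the cells, so that its levels in both kinds of cells follow in part from the rule, was at 0.19 in feeder cells and gave 0.46. In the rest of the kept cells Dcn was near the floor of detection, with 5.27 CPM under Chd4 siRNA and 2.31 CPM under control siRNA. The interferon-linked genes Isg15, Bst2 and H2-K1 gave −1.27, −0.80 and −0.72, each lower in feeder cells and higher in the rest.

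The 4 cholesterol synthesis genes named here with such a pattern were lower in feeder cells and higher in the rest: Idi1 gave −0.79, Msmo1 −0.58, Fdft1 −0.74 and Fdps −0.54. Jun, of the AP-1 factors, gave −0.98, and Tipin, of the replication fork, gave −0.83. The chromatin genes Gatad2a and Hmga2 had the other sign, with 0.44 and 0.67, being higher in feeder cells and lower in the rest. The part of free RNA in these values was not tested.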

How the results depend on the processing

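No paired analysis was possible because each group is 1 library of pooled replicates. The count of genes past the fold depended most on the depth asked of a gene: with minimums of 20, 200 and 500 UMIs it was 360, 123 and 26 higher and 654, 183 and 66 lower. It was 538 higher and 407 lower with equal weight per cell, where the interval of the sums was moved with the value, 71 higher and 111 lower in thinned cells, and 287 higher and 184 lower in cells with no Mki67 and no Top2a UMI. Without the control siRNA cell rich in Gm7120 it was 253 higher and 362 lower when the minimum of 100 UMIs was applied again. TMM scaling gave 279 higher and 322 lower, of which 228 and 322 were called before. The Chd4 ratio was −1.19 with equal weight per cell and −1.12 in cells with no Mki67 and no Top2a UMI.

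The share of feeder cells under Chd4 siRNA was 8.39% with a marker ratio of 20. The share with Mki67 or Top2a UMIs was 47.2% under Chd4 siRNA and 66.7% under control siRNA without thinning, and 15.6% and 20.9% with at least 2 UMIs. In cells with no Mki67 and no Top2a UMI the interferon list median was 0.064, and the ratios were 1.28 for Ccnb2, −0.15 for Spp1 and 0.094 for Bst2. The Ccnb2 value rests on few UMIs, since all feeder cells held 34 under Chd4 siRNA and 71 under control siRNA. The cholesterol list median was 0.076 with a minimum of 500 UMIs, which left 1 of its genes. The cause was not tested. Depth limits genes near 100 UMIs, where an interval spans more than 0.5 on the log2 scale, and leaves changes of under 0.5 unresolved there.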

Other observations

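Ftl1, the light chain of the iron store ferritin, had 20821 CPM under Chd4 siRNA and 16125 CPM under control siRNA, a log2 ratio of 0.37 (0.35 to 0.39), against 0.16 (0.14 to 0.17) in the rest of the kept cells. S100a6, a calcium-binding protein of fibroblasts, had 6187 CPM under Chd4 siRNA and 5792 CPM under control siRNA, a ratio of 0.10 (0.07 to 0.12). Ubb, a polyubiquitin gene, had 1207 CPM under Chd4 siRNA and 1130.2 CPM under control siRNA, a ratio of 0.10 (0.03 to 0.16), and 460 of its 4322 UMIs under Chd4 siRNA and 441 of 3549 under control siRNA lay in 1 cell each. Hspa8, the constitutive heat shock chaperone, had 1144 CPM under Chd4 siRNA and 869 CPM under control siRNA, a ratio of 0.40 (0.33 to 0.47), against 0.30 (0.27 to 0.33) in the rest.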
